A study of Homo sapiens with 4 samples.

Results

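Fibronectin, tenascin C, the collagen chains of types IV, V and XII and the matricellular proteins SPARC, thrombospondin 1 and TGFBI are secreted components of the extracellular matrix. The 10 genes that encode them were taken by symbol from the deposited FPKM table, as 10 of its 60302 rows, and each symbol had 1 row. The samples were HMLE cells, a line of immortalized human mammary epithelial cells, sequenced as stranded paired-end libraries of polyadenylated RNA. In 2 samples the cells carried a short hairpin RNA against HNRNPF (hnRNPF knockdown), and in 2 they carried a non-specific hairpin (control), both stably expressed from a lentiviral vector. The target, hnRNP F, is a splicing regulator that binds runs of G in RNA. The comparison asks how the levels of these matrix transcripts differ when hnRNPF is depleted. Nothing in the labels tells whether replicates were infected separately or with different hairpins, so the p-values reflect the spread among 4 libraries, which may be technical. Values are FPKM, which are corrected for the length of a gene and the depth of a library and can be compared between genes as levels per length. Errors are SDs with n = 2 per group.

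Epithelial cells rest on a basement membrane whose network is built from type IV collagen and laminins, while fibrillar collagens and fibronectin fill the stroma beyond it. Fibronectin is a secreted dimeric glycoprotein that integrins on the cell surface assemble into fibrils, and other matrix proteins attach to those fibrils. Matricellular proteins are secreted proteins that bind the matrix and cell receptors and tune adhesion more than they bear load. In mammary epithelium, fibronectin and several of these genes are widely used as markers of the mesenchymal state.

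HNRNPF (ENSG00000169813.16, chromosome 10, 43881065 to 43904614, minus strand, GRCh37) was at 18.7 and 16.6 FPKM in the knockdown samples, against 154 and 153 FPKM in the controls. It fell 8.71-fold (limma, adjusted p = 0.0251), and each sample matched its label. It was the only gene called among the 13110 rows with a mean of at least 1 FPKM, and that call was lost without either control sample (adjusted p = 0.290 without control 1 and 0.103 without control 2). The FPKM sums of the 4 samples lay between 391184 and 396135. The lowest steps in genes of 1 exon imply about 80600000 and 85000000 fragments in the knockdown samples and 77400000 and 84200000 in the controls. Basal keratin genes were abundant, with KRT5 at 3597 ± 111 FPKM in knockdown and 4041 ± 1184 FPKM in control, and KRT14 at 3556 ± 606 and 3074 ± 859 FPKM. KRT17, another basal keratin gene, was at 1786 and 2169.5 FPKM in knockdown and 975 and 1573 FPKM in control, and TP63, a basal transcription factor gene, at 30.9 and 28.7 FPKM in knockdown and 19.5 and 26.5 FPKM in control. Of the luminal markers, KRT8 was at 289.7 and 303 FPKM in knockdown and 248 and 289 FPKM in control. KRT18 was at 121 and 146 FPKM in knockdown and 172 and 177 FPKM in control, and none of these 6 genes passed the test. The other 2 basal markers, ITGB4 and ITGA6, had log2 fold changes of -0.18 and -0.23. Of the 6 basal markers, 3 were above 0 and 3 below, with a median of 0.05. Of the 6 luminal markers, 4 were tested, 3 above 0 and 1 below, with a median of 0.11. KRT19 and ESR1 stayed under 1 FPKM in every sample. The part of these marker differences in the results below was not tested. Of 9 fibroblast markers, 6 stayed under 1 FPKM in every sample, among them DCN, LUM, PDGFRA and COL1A2. The summed level of the fibroblast list was 41.3 and 39.6 FPKM in knockdown and 44.0 and 33.2 FPKM in control, most of it from THY1, COL1A1 and FAP. The 4 endothelial markers found in the table summed to at most 0.145 FPKM in each sample. Of 4 immune markers, CD3E was at 0 and PTPRC at most 0.0384 FPKM in all samples, while CD68 was at 11.2 and 11.3 FPKM in knockdown and 12.0 and 12.1 FPKM in control. CD14 was at 1.43 and 0.699 FPKM in knockdown and 1.15 and 0.535 FPKM in control. Of 5 myoepithelial contractile markers, 3 were tested, 1 above 0 and 2 below, with a median of -0.08, and none passed. ACTA2 alone of these 3 had both knockdown samples lower, against 17.1% of all tested rows. MYH11 and CNN1 stayed under 1 FPKM in every sample. In bulk RNA, fewer cells making a transcript and less of it per cell cannot be told apart.

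The sequences before the transcription starts are shown for FN1, the gene with the highest level, for TNC, and for the stretch that separates COL4A1 from COL4A2, because those 2 genes share it and their levels are compared below. They come from RefSeq (GRCh38.p14), which held a window for 9 of the 10 genes. Each is written 5′ to 3′ in lower case, and capitals mark 4 motifs searched on both strands. These are the CCAAT box (its own letters), the GC box (GGGCGG), the cyclic AMP response element (TGACGTCA) and the core of the TATA box (TATAA). Copies of a motif that overlap run together. The FN1 sequence is the 250 bases at chr2:215436069-215436318 on the minus strand, the TNC sequence the 250 bases at chr9:115118158-115118407 on the minus strand, and the COL4A1-COL4A2 sequence the 126 bases at chr13:110307158-110307283 on the plus strand.
FN1: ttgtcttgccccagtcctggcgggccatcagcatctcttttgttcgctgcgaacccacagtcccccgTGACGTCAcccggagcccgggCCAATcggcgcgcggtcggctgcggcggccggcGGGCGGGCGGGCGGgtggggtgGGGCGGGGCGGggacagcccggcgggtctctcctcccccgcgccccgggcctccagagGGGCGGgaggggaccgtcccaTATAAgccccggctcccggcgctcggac
TNC: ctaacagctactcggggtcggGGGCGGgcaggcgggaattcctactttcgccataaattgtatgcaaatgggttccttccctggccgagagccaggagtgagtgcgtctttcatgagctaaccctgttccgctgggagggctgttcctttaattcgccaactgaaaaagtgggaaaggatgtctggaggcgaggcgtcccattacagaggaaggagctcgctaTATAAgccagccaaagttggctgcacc
COL4A1-COL4A2: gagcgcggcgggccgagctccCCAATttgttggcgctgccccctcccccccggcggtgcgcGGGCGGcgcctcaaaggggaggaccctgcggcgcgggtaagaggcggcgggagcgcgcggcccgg

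The FN1 window held all 4 motifs, with 6 copies of the GC box, some overlapping, and a TATAA that ended 23 bases before the start. TNC likewise had a TATAA, ending 22 bases before its start, and the remaining 7 genes with a window had none. TATAA occurred in 2 of 9 matrix gene windows, against 19.6% of 27305 windows of 250 bases over all genes. The cyclic AMP response element occurred in FN1 alone of the 9 and in 1.77% of all windows. The GC box was in 8 of 9 windows, against 42.3% of all, and SPARC was the one without it. The CCAAT box was in 4 of 9, against 33.0% of all. The CCAAT box and 1 GC box of the stretch between COL4A1 and COL4A2 count for both genes. The windows over all genes were not limited to genes expressed in these cells. These are letter matches, not measured binding sites.

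The 10 genes covered a wide range of levels, and their order was nearly the same in both groups. FN1 was the highest, then THBS1, SPARC and TGFBI, then COL4A2, COL4A1, TNC and COL12A1, with COL5A2 lower and COL5A1 close to 0. Over the 4 samples SPARC ranged from 85.9 to 127 FPKM and TGFBI from 71.5 to 89.7 FPKM, so these neighbours overlapped. COL4A1, COL12A1 and TNC also overlapped with a neighbour, with TNC spanning 16.3 to 29.4 FPKM, COL12A1 19.1 to 25.8 FPKM and COL4A1 28.3 to 32.6 FPKM. FN1 alone made up 72.3% and 76.3% of the summed FPKM of the 10 genes in the knockdown samples, and 67.4% and 69.8% in the controls. Without FN1 the other 9 summed to 567 and 655 FPKM in knockdown and 571 and 584 FPKM in control, which overlap.

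**Figure D1:**
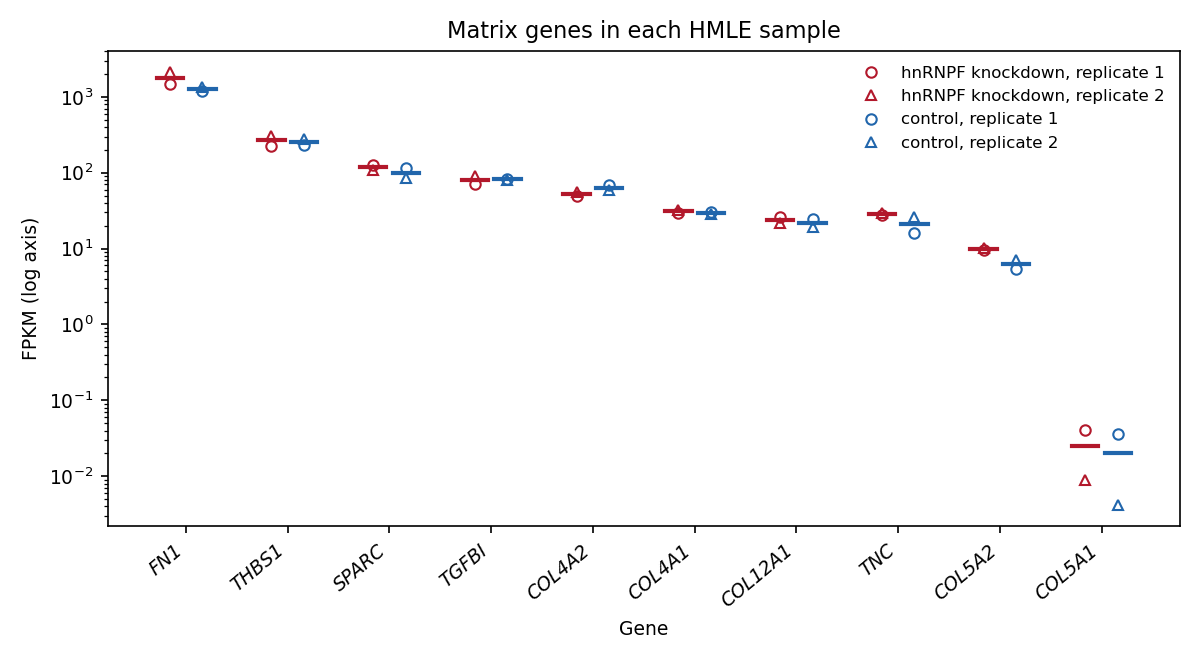
FPKM of each of the 10 matrix genes (x axis, ordered by control mean) on a log axis, with circles for replicate 1, triangles for replicate 2 and bars for the group mean of hnRNPF knockdown (red) and control (blue). FN1 is at 1179 FPKM or more in all samples, and COL5A1 does not exceed 0.0410 FPKM in any.

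No matrix gene passed the adjusted threshold of 0.05 in limma, against 0.00763% of all tested rows (1 gene, HNRNPF). Of the 10 genes, 9 reached the mean of 1 FPKM needed for the test, and COL5A1 did not. Adjusted p-values of the 9 ran from 0.724 to 0.999, and 1 gene, COL5A2, had an unadjusted p under 0.05, against 6.08% of all tested rows. The groups did not overlap for 4 of the 10 genes (FN1, TNC, COL5A2 and COL4A2), against 34.6% of all tested rows. Of these, 3 had both knockdown samples higher (17.5% of all rows) and 1 had both lower (17.1%), so the shares do not set these genes apart at this sample number. The log2 fold change was above 0 for 7 of the 9 and below 0 for 2, with a median of 0.13, against a median of 0.001 and 50.2% above 0 over all tested rows. With 2 samples in each group the smallest exact permutation p is 0.333, so limma over all rows is the test used.

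**Figure D2:**
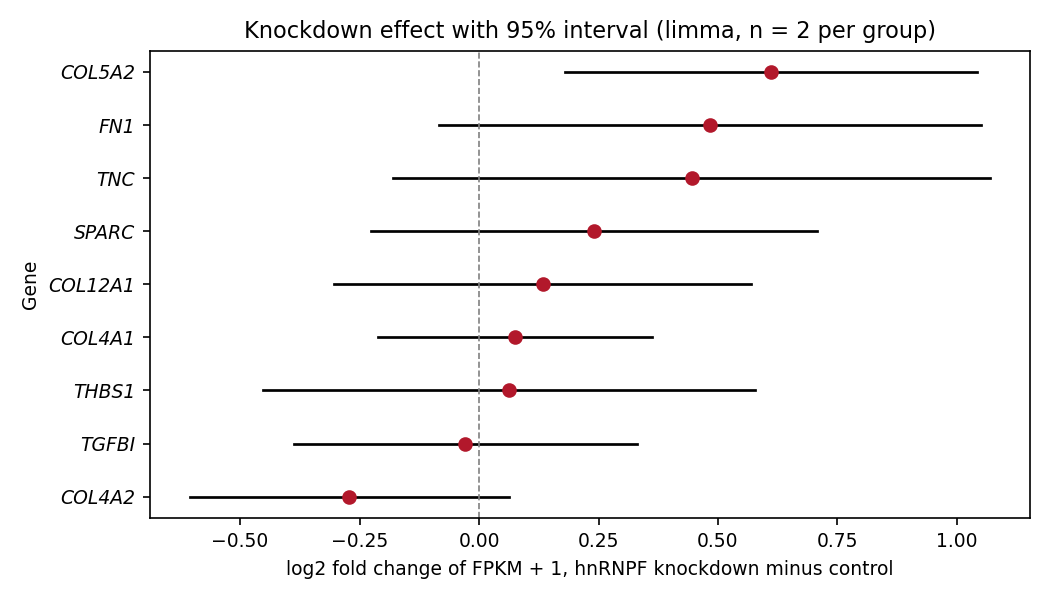
Log2 fold change of FPKM + 1, hnRNPF knockdown minus control, for the 9 tested matrix genes, with the 95% interval from limma. The points run from -0.27 for COL4A2 to 0.61 for COL5A2, and 8 of the 9 intervals include 0, all but that of COL5A2, whose adjusted p was 0.724.

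FN1 (ENSG00000115414.18, chromosome 2, 216225163 to 216300895, minus strand, GRCh37) encodes fibronectin. It was at 1482 and 2105 FPKM in the knockdown samples and 1179 and 1353 FPKM in the controls. Both knockdown samples were above both controls, but knockdown 1 lay closer to control 2 than to knockdown 2. FN1 ranked 20 and 16 among all rows by FPKM in knockdown and 25 and 22 in control, among the most abundant transcripts of these cells. The means of 1793 ± 440.4 FPKM in knockdown and 1266 ± 123 FPKM in control were 1.42-fold apart, a log2 fold change of 0.48 (SE 0.21, 95% interval -0.08 to 1.05) that did not pass (limma, adjusted p = 0.859). Without knockdown 2 the log2 fold change was 0.23, and without knockdown 1 it was 0.74. FN1 transcripts are known to be spliced at several exons; 1 value per gene does not show which isoforms were present, and these were not analysed here.

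TNC (ENSG00000041982.15, chromosome 9, 117781857 to 117880536, minus strand, GRCh37) encodes tenascin C, a large glycoprotein that binds fibronectin and is made during tissue remodelling. It was at 27.3 and 29.4 FPKM in the knockdown samples and 16.3 and 25.9 FPKM in the controls. The groups did not overlap, and control 1 stood apart from the other 3 samples. The log2 fold change was 0.44 (SE 0.24, 95% interval -0.18 to 1.07; limma, adjusted p = 0.890). It was 0.12 without control 1 and 0.77 without control 2.

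COL4A1 (ENSG00000187498.14, chromosome 13, 110801310 to 110959496, minus strand, GRCh37) and COL4A2 (ENSG00000134871.17, chromosome 13, 110958159 to 111165374, plus strand) encode the chains that twist together into the most widespread form of basement membrane collagen. They are read in opposite directions from the stretch printed above, and their gene models in the deposited table overlap by 1338 bases on opposite strands. COL4A1 was at 29.2 and 32.6 FPKM in knockdown and 30.2 and 28.3 FPKM in control, so the groups overlapped. COL4A2 was at 49.8 and 55.5 FPKM in knockdown and 69.2 and 58.6 FPKM in control, with both knockdown samples below both controls. COL4A2 had the higher level of the 2 genes in each of the 4 samples. The log2 fold change was 0.08 for COL4A1 (SE 0.11, 95% interval -0.21 to 0.36; limma, adjusted p = 0.999). For COL4A2 it was -0.27 (SE 0.13, 95% interval -0.61 to 0.06; limma, adjusted p = 0.864).

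The ratio of COL4A1 to COL4A2 FPKM was 0.586 and 0.588 in the knockdown samples, against 0.437 and 0.483 in the controls. The knockdown samples lay together above both controls, and the COL4A2 values contributed most of that difference, since COL4A1 differed little. The difference of the log2 ratio was 0.35, with an exact two-sided permutation p of 0.333, the smallest that 2 against 2 samples can give. For comparison, another head-to-head pair of type IV chains, COL4A5 and COL4A6, chosen after the values were seen, had ratios of 1.20 and 0.842 in knockdown and 1.05 and 0.853 in control, which overlap. A further pair, COL4A3 and COL4A4, stayed at or under 0.0270 FPKM in all samples, so its ratio was not used. The ratio of COL5A2 to COL5A3, chains of type V collagen, was 1.68 and 1.46 in knockdown and 1.26 and 0.923 in control, without overlap. The type I ratio, COL1A1 to COL1A2, was 24.1 and 36.3 in knockdown and 24.5 and 29.4 in control, which overlap. Both pairs were chosen after the values were seen. COL5A2 to COL5A1 also overlapped, with COL5A1 near 0. A ratio without overlap was thus not particular to COL4A1 and COL4A2, and no share over all gene pairs was computed.

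**Figure D3:**
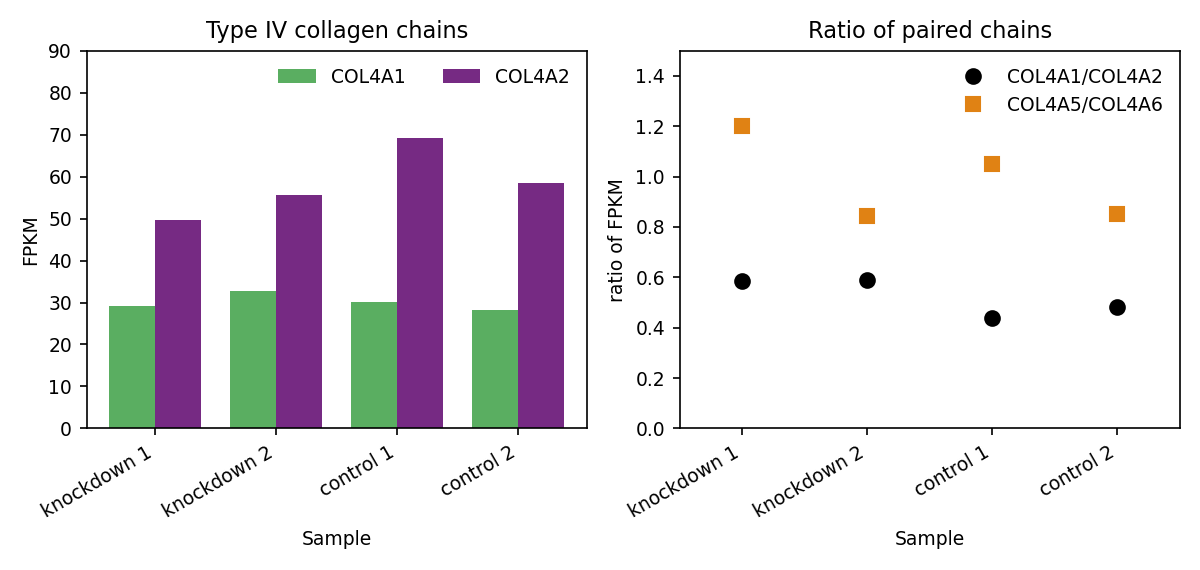
Left, FPKM of COL4A1 and COL4A2 in each sample; right, the ratio of COL4A1 to COL4A2 (circles) and of COL4A5 to COL4A6 (squares). The COL4A1 to COL4A2 ratio is 0.586 and 0.588 in knockdown and 0.437 and 0.483 in control.

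COL5A2 (ENSG00000204262.11, chromosome 2, 189896622 to 190044605, minus strand, GRCh37) encodes a chain of type V collagen, a minor fibrillar collagen that sets the diameter of type I fibrils. It was at 9.71 and 10.3 FPKM in knockdown and 5.45 and 7.04 FPKM in control. Both knockdown samples were above both controls, and the difference of the group means was larger than the gap between the samples of either group. The means of 10.01 ± 0.426 and 6.24 ± 1.12 FPKM were 1.60-fold apart, the highest ratio among the 10 genes. The log2 fold change of 0.61 (SE 0.16, 95% interval 0.18 to 1.04) had an unadjusted p of 0.0157 and did not pass over all rows (limma, adjusted p = 0.724). Leaving out 1 sample at a time gave log2 fold changes between 0.45 and 0.77.

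COL5A1 (ENSG00000130635.15, chromosome 9, 137533620 to 137736689, plus strand, GRCh37) encodes the chain that most type V molecules contain. It was at 0.0410 and 0.00901 FPKM in knockdown and 0.03605 and 0.004205 FPKM in control, near 0 in all samples and too low to test. COL5A3, the third chain of this type, chosen after the values were seen, was at 5.77 and 7.06 FPKM in knockdown and 4.31 and 7.62 FPKM in control. The chains of type I collagen, also looked up after the values were seen, stood at unequal levels too. COL1A1 was at 11.5 and 12.3 FPKM in knockdown and 10.4 and 9.24 FPKM in control, while COL1A2 was at 0.476 and 0.339 FPKM in knockdown and 0.425 and 0.314 FPKM in control.

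COL12A1 (ENSG00000111799.20, chromosome 6, 75794042 to 75915767, minus strand, GRCh37) encodes a collagen that attaches to the surface of fibrils made by other collagens. It was at 25.8 and 21.9 FPKM in knockdown and 24.4 and 19.1 FPKM in control. The groups overlapped, and the log2 fold change was 0.13 (SE 0.16, 95% interval -0.30 to 0.57; limma, adjusted p = 0.999).

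Among the matricellular genes, SPARC (ENSG00000113140.10, chromosome 5, 151040657 to 151066726, minus strand, GRCh37) encodes a collagen-binding protein that guides collagen assembly. It was at 127 and 108 FPKM in knockdown and 114 and 85.9 FPKM in control, and control 1 lay between the knockdown samples. Its log2 fold change was 0.24 (SE 0.18, 95% interval -0.23 to 0.71; limma, adjusted p = 0.927), and it was 0.037 without control 2 and 0.44 without control 1. THBS1 (ENSG00000137801.10, chromosome 15, 39873280 to 39891667, plus strand, GRCh37) encodes thrombospondin 1, which can release TGF-beta from its latent form. It was at 226 and 308 FPKM in knockdown and 229 and 278 FPKM in control, with the replicate 2 sample the higher of each group. Its log2 fold change was 0.06 (SE 0.19, 95% interval -0.45 to 0.58; limma, adjusted p = 0.999), and its sign turned without knockdown 2 (-0.16) or without control 1 (-0.08).

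TGFBI (ENSG00000120708.16, chromosome 5, 135364584 to 135399507, plus strand, GRCh37) encodes a TGF-beta-induced adhesion protein that binds integrins and collagens. It was at 71.5 and 89.7 FPKM in knockdown and 82.3 and 81.2 FPKM in control, so both controls lay between the knockdown samples. The log2 fold change was -0.03 (SE 0.14, 95% interval -0.39 to 0.33; limma, adjusted p = 0.999). The intervals of COL4A1, COL12A1, SPARC, THBS1 and TGFBI each reach a log2 change of 0.33 or more, so the data do not show that the groups were alike for these genes.

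Runs of G, which hnRNP F binds, were counted in the longest coding transcript of each matrix gene in GENCODE 29. The transcripts of the 9 tested matrix genes had 10 (SPARC) to 66 (COL12A1) exons, and introns were not counted. Runs of 3 or more G occurred 33.7 times per kb in COL4A2 and 27.4 times per kb in COL4A1, above 99.7% and 97.8% of the 11424 tested coding genes. The median over those genes was 12.5 per kb. The other 7 tested matrix genes had 9.13 (THBS1) to 17.5 (COL5A2) runs per kb, and FN1 had 12.4. These 2 transcripts were also the richest in G and C, at 62.0% for COL4A2 and 55.4% for COL4A1, against 45.6% to 54.0% in the other 7. COL4A2 had both knockdown samples below both controls, as did 17.1% of all tested rows, and COL4A1 did not. Whether runs of G relate to the knockdown differences was not tested.

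The other genes of the matrix pathway, in 6 lists, held no gene that passed over all rows in either direction. The remaining collagen chains comprised 39 genes, of which 13 were tested, 10 with a log2 fold change above 0 and 3 below, with a median of 0.13. Of the 13, 3 had both knockdown samples higher and 1 had both lower, against 17.5% and 17.1% of all tested rows. Among the untested chains, 2 had both higher and 5 had both lower, and these shares do not cover them. All of these untested chains without overlap stayed under 1 FPKM in every sample. The highest of them, COL6A3, reached at most 0.477 FPKM. COL17A1, a transmembrane collagen of hemidesmosomes, was the highest at 315 and 394 FPKM in knockdown and 252 and 315 FPKM in control. COL7A1, which forms anchoring fibrils under epithelia, was at 113 and 105 FPKM in knockdown and 88.4 and 103 FPKM in control. Both are collagens of epithelial attachment, and their levels lay above those of the 5 collagen genes among the 10 in every sample. Neither passed (limma, adjusted p = 0.896 and 0.916).

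Enzymes and chaperones of collagen biosynthesis had 13 of 23 tested genes above 0 and 10 below, with a median of 0.02. PPIB, a prolyl isomerase of the collagen folding complex, was at 260.5 and 273 FPKM in knockdown and 291 and 277 FPKM in control. P4HB, a subunit of prolyl 4-hydroxylase, was at 178 and 187 FPKM in knockdown and 260.4 and 214 FPKM in control, with an adjusted p of 0.806 in limma. Both genes had their knockdown samples below both controls. Of the 23 tested genes, 5 had both knockdown samples higher and 7 had both lower, against 17.5% and 17.1% of all tested rows. Among the untested genes, all under 1 FPKM, 2 had both higher and 0 had both lower, and these shares do not cover them.

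Of the other matricellular and matrix glycoprotein genes, 13 of 36 were tested, 9 above 0 and 4 below, with a median of 0.04. CYR61, a matricellular protein also called CCN1, was at 39.5 and 78.0 FPKM in knockdown and 56.5 and 90.4 FPKM in control. EFEMP1, a fibulin, was at 38.7 and 31.3 FPKM in knockdown and 35.0 and 23.9 FPKM in control. The groups overlapped for both, and for 12 of the 13 genes tested, where 34.6% of all tested rows did not overlap. Among the untested genes of this list, 6 had both knockdown samples higher and 0 had both lower. These 6 stayed under 1 FPKM in every sample, and the shares given here cover tested rows only.

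Cell surface receptors that bind these matrix proteins had 6 of 12 tested genes above 0 and 6 below, with a median of 0.05. ITGB1, the beta subunit of the main fibronectin and collagen integrins, was at 241 and 231 FPKM in knockdown and 274 and 277 FPKM in control (limma, adjusted p = 0.830). SDC1, a heparan sulfate proteoglycan, was at 133 and 111 FPKM in knockdown and 220 and 143 FPKM in control (limma, adjusted p = 0.855). For each of them the knockdown samples were the lowest of the 4, and control 1 was well above control 2 for SDC1. They were the 2 tested receptor genes with both knockdown samples lower, and 5 had both higher, against 17.1% and 17.5% of all tested rows.

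Ligands, receptors and mediators of TGF-beta, a known inducer of fibronectin and collagen genes, had 12 of 16 tested genes above 0 and 4 below, with a median of 0.16. TGFBR2, the type II receptor, was at 52.3 and 55.8 FPKM in knockdown and 48.1 and 52.8 FPKM in control. Of the 16 tested genes, 5 had both knockdown samples higher and 2 had both lower, against 17.5% and 17.1% of all tested rows. TGFBR1, the type I receptor, named after its values were seen, had the smallest p of the 6 lists. It was at 4.18 and 3.39 FPKM in knockdown and 10.8 and 13.9 FPKM in control, and it did not pass (limma, unadjusted p = 0.000797, adjusted p = 0.352).

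Matrix proteases and their inhibitors had 9 of 12 tested genes above 0 and 3 below, with a median of 0.17. PLAU, urokinase, was at 187 and 186 FPKM in knockdown and 161 and 176 FPKM in control. TIMP1, an inhibitor of metalloproteinases, was at 107 and 122 FPKM in knockdown and 120 and 151 FPKM in control. Of the 12 tested genes, 7 had both knockdown samples higher and 0 had both lower, against 17.5% and 17.1% of all tested rows, and none passed over all rows. Among the untested genes of this list, whose means were under 1 FPKM, 2 had both knockdown samples higher and 0 had both lower. These shares do not cover untested genes.

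**Figure D4:**
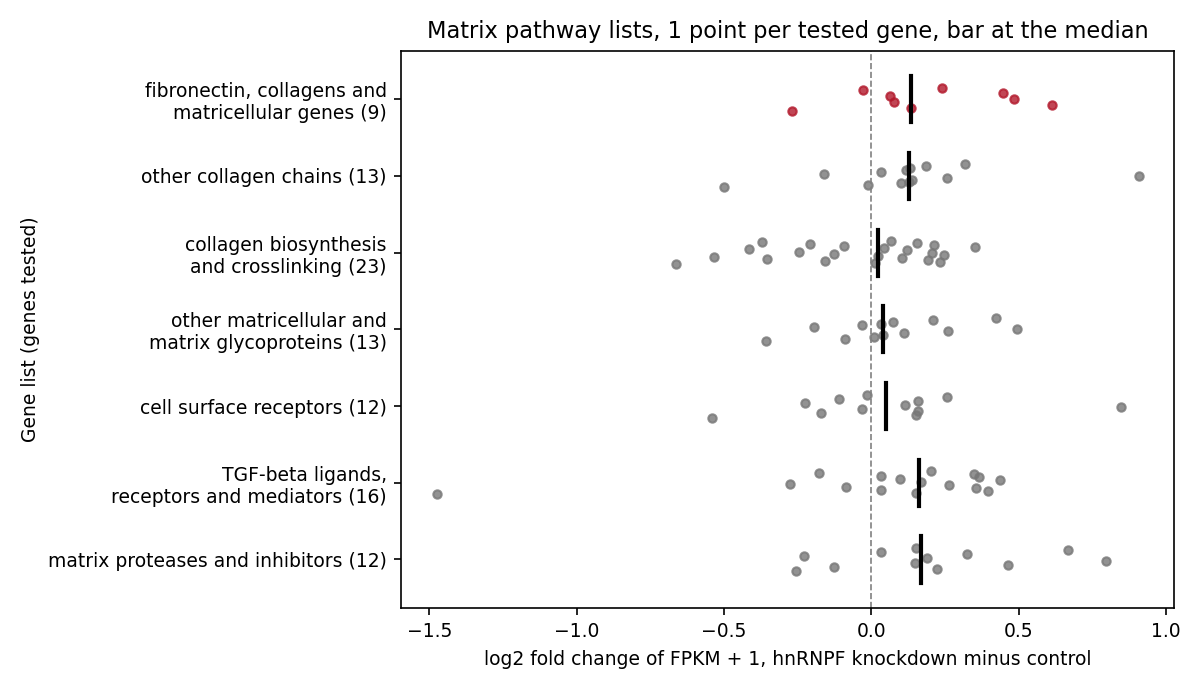
Log2 fold change of FPKM + 1, hnRNPF knockdown minus control, with 1 point per tested gene and a bar at each list's median; the number tested stands in brackets. Medians lie between 0.02 for collagen biosynthesis and 0.17 for proteases, and the point at -1.48 is TGFBR1.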

How the data were processed

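The deposited table holds FPKM made by the authors for 60302 rows in 4 samples, 1 column per sample per the file headers. Cuffdiff 2.2.1, STAR 2.5.3a and GRCh37 appear, without roles, in the submitters' processing notes, and the annotation release is not given in the sources used here. Groups came from the sample titles. FPKM steps in genes of 1 exon and at least 500 bases came out whole within 0.02 for only 42.5% to 45.2% of low values, so no count test was run and the fragment totals are estimates. Rows with a mean of at least 1 FPKM (13110) were compared as log2(FPKM + 1) by limma 3.58.1 (R 4.3.3) using an intensity trend, no covariate, two-sided tests and Benjamini-Hochberg adjustment over all tested rows at 0.05. This scale understates changes of low genes, and fold differences compare mean FPKM. The matrix genes and lists were chosen with earlier results of these data known. Named genes are HNRNPF, the 10 matrix genes and the 2 genes with the highest mean FPKM in each pathway list, with marker genes for the cell check; later choices are said to be so. 1 gene that this rule names is not reported here. The alternatives tried were other pseudocounts (0.1 and 0.5 FPKM), other filters (none, or 5 FPKM), quantile and median-ratio scaling, no trend, a robust fit, a replicate block, summed rows per symbol and leaving out each sample. GENCODE 29 transcripts and RefSeq promoters are on another build, so positions of genes are those in the deposited table. Rows that overlap 6 of the matrix genes held at most 2.76 FPKM, apart from the COL4A1 and COL4A2 pair, and the libraries were stranded per the labels. Python 3.11.15 with matplotlib 3.10.9 made the sequence counts and figures.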

Additional observations from a re-analysis of the deposited data

How the results depend on the processing

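No matrix gene passed under any of the alternatives run, whose adjusted p-values lay between 0.290 and 0.9998 in limma. Of 126 refits of the 9 tested genes, 121 kept the direction and 5 turned it, each without 1 sample. Leaving out 1 sample at a time gave log2 fold changes of -0.035 to 0.30 for COL12A1, -0.0035 to 0.15 for COL4A1, -0.19 to 0.13 for TGFBI and -0.16 to 0.28 for THBS1. Over the same refits the median of the 9 genes ran from 0.037 (without control 2) to 0.23 (without knockdown 2). The median over all tested rows moved as well, from 0.001 in the main fit to -0.063 without control 2 and 0.061 without knockdown 2. The number of genes without overlap ran from 4 to 9, where a group of 1 sample overlaps less often by construction, and the genes called over all rows from 0 to 2. That count was also 0 with no filter, 0 without the intensity trend and 0 with the replicate block, against 797, 1703, 789 and 1790 rows at an unadjusted p under 0.05 in the main fit and these 3 fits. The numbers do not pair the samples by the labels; the deviations of knockdown 1 and control 1 from their group means correlated at 0.39 over the tested rows, and with the replicate block FN1 had an unadjusted p of 0.0173 and COL5A2 of 0.00637 (limma, adjusted p = 0.327 and 0.290). Quantile normalization and median-ratio scaling turned the direction of 0 of the 9 genes. The depth is an estimate, and 2 samples per group limit the precision of every value here.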
